A study of Homo sapiens with 28 samples.

Results

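The 9 neurotransmitter receptor genes described here were followed across microRNA transfections of Kelly cells, an established neuroblastoma line with an amplified MYCN gene. They were taken by symbol from a count table of 30887 rows: the muscarinic acetylcholine receptor CHRM1, the nicotinic acetylcholine receptor subunits CHRNA3, CHRNA5, CHRNA7 and CHRNB2, the serotonin-gated channel subunit HTR3A, the adenosine receptor ADORA1, the adrenergic receptor ADRA2A and the AMPA-type glutamate receptor subunit GRIA2. The genes were selected on earlier results of these data, in which the log2 changes of CHRM1 under miR-380-3p and miR-485-3p and of ADORA1 under miR-485-3p against control had been seen. All 9 symbols occurred once, so no choice between repeated rows was needed. Cells were reverse transfected with a synthetic mimic of miR-485-3p, miR-99b-5p, miR-1283, miR-380-3p, miR-1915-3p or miR-100-3p, or with a scrambled control, and RNA was taken after 48 h. The labels give 25 nM for the mimics. There were 4 libraries in each of 7 groups. The labels do not say that these came from separate cultures, so the tests below measure the spread between libraries, which may be technical. All 28 libraries come from the same line, and every mimic is compared with the same 4 control libraries.

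Receptors for acetylcholine, serotonin and glutamate fall into channels that open when the transmitter binds and receptors that signal through G proteins. CHRNA3, CHRNA5, CHRNA7, CHRNB2 and HTR3A encode subunits of pentameric channels of the Cys-loop family, and GRIA2 encodes a subunit of tetrameric AMPA receptors. CHRM1 couples mainly to Gq and phospholipase C, whereas ADORA1 and ADRA2A couple to Gi and lower cyclic AMP. Neuroblastoma arises from the sympathetic lineage, whose ganglion neurons receive their input through nicotinic receptors built around the alpha3 subunit.

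A microRNA guides the silencing complex to messenger RNAs that pair with its seed, bases 2 to 8 from its 5′ end. The mature sequences of the 6 transfected microRNAs are shown because the seeds define which receptor transcripts could pair with each mimic. They are RefSeq sequences (GRCh38.p14), written 5′ to 3′ with the seed in capitals, and no seed is shared between them.
miR-99b-5p: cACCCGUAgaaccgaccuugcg
miR-380-3p: uAUGUAAUaugguccacaucuu
miR-485-3p: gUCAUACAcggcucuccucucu
miR-100-3p: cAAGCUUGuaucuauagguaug
miR-1915-3p: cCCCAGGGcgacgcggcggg
miR-1283: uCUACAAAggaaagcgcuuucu

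Heptamers complementary to these seeds were counted on the transcript strand, using for each gene its longest 3′ UTR. They are TACGGGT for miR-99b-5p, ATTACAT for miR-380-3p, TGTATGA for miR-485-3p, CAAGCTT for miR-100-3p, CCCTGGG for miR-1915-3p and TTTGTAG for miR-1283. The 9 receptor genes held 13 such sites in 10 of 54 combinations of gene and mimic. CHRNA5 held 1 site each for miR-380-3p, miR-485-3p and miR-100-3p. CHRNA7 held 2 for miR-485-3p and 1 for miR-1283. The remaining sites were 2 in CHRM1, 1 in CHRNB2 and 2 in ADORA1 for miR-1915-3p, and 1 each in ADORA1 and GRIA2 for miR-100-3p. CHRNA3, HTR3A and ADRA2A held none, and no member held a miR-99b-5p site. Among the 12535 tested genes with a 3′ UTR, 1.26% held a site for miR-99b-5p, 15.0% for miR-380-3p, 14.3% for miR-485-3p, 10.5% for miR-100-3p, 23.1% for miR-1915-3p and 20.8% for miR-1283. A match is a description of letters, not a measured site. The sites of CHRNA7 for miR-485-3p and of CHRNA5 for miR-100-3p are shown with the bases around them because these are the combinations with a heptamer in which a change was called, and the other sites of CHRNA5 stand beside them for comparison. The windows come from GENCODE v29 transcripts on GRCh38, plus strand, with the heptamer in capitals.
CHRNA7, miR-485-3p, chr15:32172263-32172269: aagtagttggtttttaTGTATGAa
CHRNA7, miR-485-3p, chr15:32172465-32172471: gtctcagcgtttaactTGTATGAa
CHRNA5, miR-485-3p, chr15:78593419-78593425: catttgaacagttggcTGTATGAc
CHRNA5, miR-380-3p, chr15:78594362-78594368: tagtcagtccactacaATTACATg
CHRNA5, miR-100-3p, chr15:78593352-78593358: tgtgttaaatttagtgCAAGCTTt
Both CHRNA7 heptamers are followed by A, the extended form of a seed match, and none of the 3 in CHRNA5 is.

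Expected counts summed to between 10.99 M and 23.3 M per library (median 15 M), and mitochondrially encoded genes took 6.158% to 13.58% of them. All 12 markers of adrenergic neuroblastoma that were examined passed the filter, among them MYCN (4550 CPM on average), DBH and HAND2. Their summed level was 12200 to 13200 CPM in the controls, and lower in every library of miR-99b-5p (8670 to 10800 CPM), miR-380-3p (9150 to 11200 CPM) and miR-485-3p (7910 to 10700 CPM). Of 12 markers of other cell types, 10 had a row and 5 passed the filter. Their sum was 16.2 to 18.3 CPM in the controls, 8.73 to 10.3 under miR-99b-5p, 17.2 to 19.9 under miR-380-3p, 12.3 to 15.2 under miR-485-3p, 14.3 to 16.7 under miR-100-3p, 14.3 to 19.8 under miR-1915-3p and 14.2 to 16.6 under miR-1283. The endothelial PECAM1 (0.00389 CPM) and the fibroblast collagen COL1A2 (0.00208 CPM) were near 0.

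None of the 9 members was too low to judge: each passed the filter on low counts and had a mean above 1 CPM (expected counts scaled to a library's effective size). The lowest single count was 23 (CHRM1 under miR-485-3p) and the highest was 12816 (CHRNA3 under miR-1915-3p). Per kilobase of merged exons, CHRNA3 was the most abundant in the controls at 122 ± 3.48 CPM per kb (SD, n = 4), and HTR3A followed at 30.4 ± 2.19. CHRNA5 (14.5 ± 0.525) and CHRNB2 (14.4 ± 0.576) had overlapping ranges. GRIA2 stood at 4.1 ± 0.421, ADRA2A at 3.34 ± 0.542, CHRM1 at 2.81 ± 0.286, CHRNA7 at 2.46 ± 0.109 and ADORA1 at 1.32 ± 0.153 CPM per kb. CHRNA3, HTR3A and ADORA1 kept places 1, 2 and 9 with the longest transcript or the length column of the deposited table as the length, whereas CHRNA7, whose merged exons reach 20978 bases, moved from place 8 to 5 and 6.

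**Figure D1:**
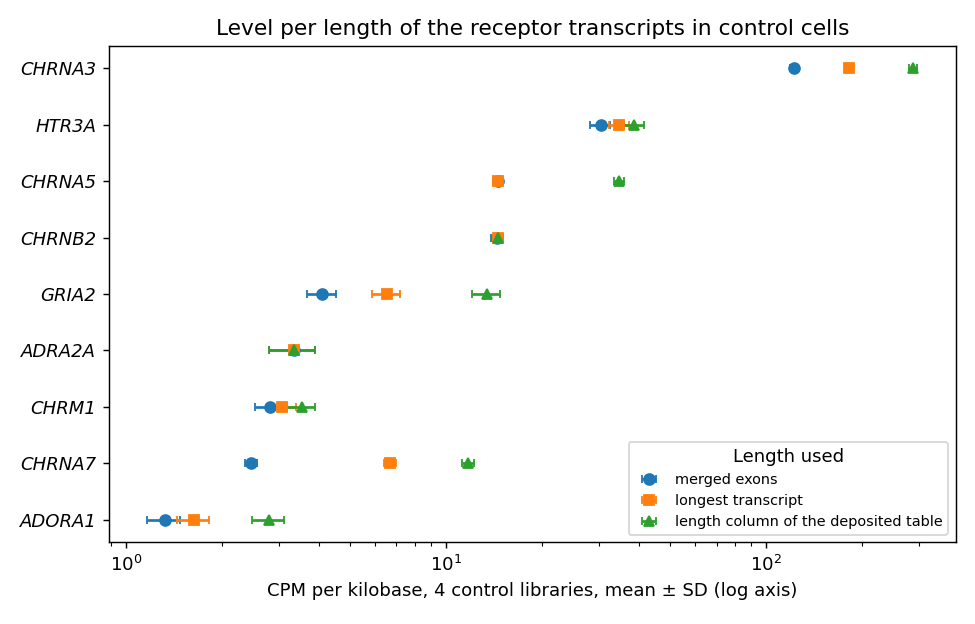
Level per length of the 9 receptor transcripts in the 4 control libraries, in CPM per kilobase on a log axis, as mean ± SD, with 3 definitions of gene length. CHRNA3 lies highest (122 CPM per kb of merged exons) and ADORA1 lowest (1.32) under every definition, and the place of CHRNA7 depends on the length used.

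Of the 54 changes of a member under a mimic, 17 were called at an adjusted p under 0.05 (edgeR's quasi-likelihood test, Benjamini-Hochberg over the 15058 genes tested), 12 lower and 5 higher. The 3 changes known when the members were listed are described without a p-value, and the counts support nothing about receptors as a class. At least 1 mimic gave a call in 8 of the 9 members, where 39% of all tested genes had one. Under miR-485-3p 6 of 9 members were called, 2 higher and 4 lower, where 21.1% of all tested genes were called, 10.5% higher and 10.6% lower. Under miR-99b-5p 1 was called higher and 3 lower, against 16.6% of all genes (8.11% higher, 8.48% lower). Under miR-380-3p 4 were called lower and 0 higher, against 10.9% of all genes (5.6% higher, 5.25% lower). Under miR-100-3p 2 were called higher and 1 lower, against 5.96% of all genes (2.9% higher, 3.05% lower). The 4 libraries of a mimic and the 4 controls did not overlap for 7 members under miR-99b-5p (23.9% of all genes), 6 under miR-485-3p (20.1%), 5 under miR-380-3p (17.4%), 4 under miR-100-3p (12.3%), 2 under miR-1283 (3.07%) and 1 under miR-1915-3p (6.63%).

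No member was called under miR-1915-3p (0.246% of all genes called, 0.0133% higher and 0.232% lower) or miR-1283 (0.0199%, with 0% higher), and DESeq2 also called 0 under each. At an unadjusted p under 0.05 there were 1 and 2 members. The median log2 change of the 9 members was -0.32 under miR-99b-5p, -0.15 under miR-380-3p, -0.11 under miR-485-3p, 0.11 under miR-100-3p, -0.042 under miR-1915-3p and -0.030 under miR-1283. The median of all tested genes lay between -0.012 and 0.025. In bulk RNA, fewer cells with a transcript and less transcript per cell cannot be told apart.

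**Figure D2:**
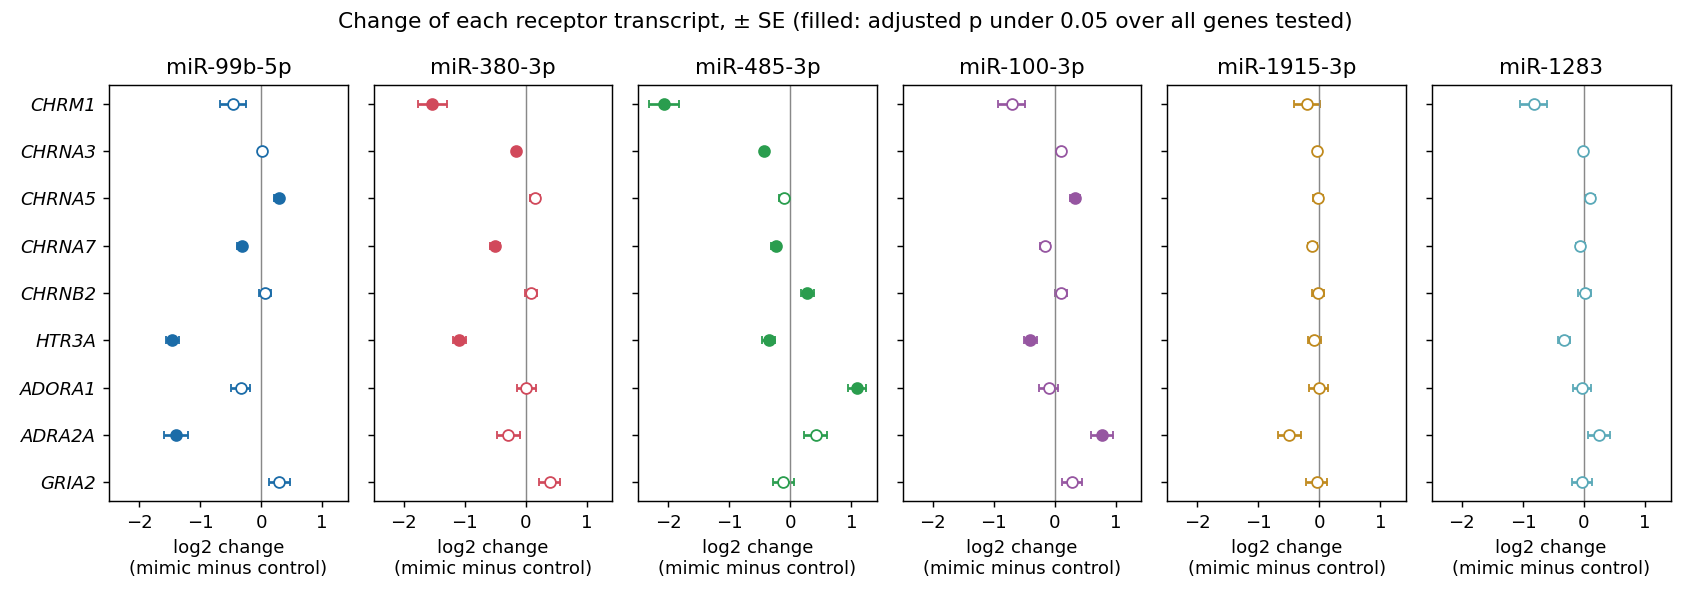
Log2 change of each receptor transcript (mimic minus control, ± SE) in 1 panel per mimic, with filled points for an adjusted p under 0.05 over all genes tested. CHRM1 lies left of 0 in all 6 panels and reaches -2.07 under miR-485-3p, HTR3A and ADRA2A are lowest under miR-99b-5p, and ADORA1 lies far to the right only in the miR-485-3p panel.

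CHRM1 (ENSG00000168539, chr11:62908679-62921807, minus strand), the Gq-coupled muscarinic receptor, had the widest relative range of the acetylcholine receptor members. Its highest library was 7.43-fold its lowest, on counts of 23 to 161. Its level was 8.04, 8.67, 9.87 and 9.93 CPM in the controls. Under miR-485-3p it was 1.63, 2.74, 1.34 and 3.22 CPM, and under miR-380-3p 3.21, 4.88, 2.12 and 2.56 CPM. All 8 of these libraries lay below all 4 controls, by 4.19-fold (log2 change -2.07 ± 0.25) and 2.88-fold (-1.53 ± 0.23), and the 2 groups overlapped each other. The 3′ UTR of CHRM1, 1039 bases, holds no heptamer for either mimic, and neither does the rest of the transcript.

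Under the other mimics CHRM1 was also below the control mean. MiR-1283 gave 4.33 to 6.22 CPM (-0.82 ± 0.22), and although no library reached the controls, the adjusted p was 0.743 in a comparison that called 3 genes in all. With miR-100-3p the libraries split into 3.95 and 4.05 CPM (replicates 2 and 3) and 6.6 and 7.33 CPM (replicates 1 and 4), for a change of -0.71 ± 0.22 (adjusted p = 0.0541). That value passed the threshold with DESeq2 (adjusted p = 0.025), after adding the GC slope described below to the model (0.0242) and without miR-100-3p replicate 1 (0.0495) or 4 (0.0257). The miR-99b-5p libraries lay between 6.33 and 7.06 CPM (-0.46 ± 0.22, adjusted p = 0.157, or 0.012 in a fit of only the 8 libraries), and the miR-1915-3p libraries, the group for which CHRM1 holds 2 heptamers, between 7.01 and 9.38 CPM (-0.20 ± 0.21, adjusted p = 0.995). The controls were thus the highest group, and neighbouring groups in the order of means overlapped throughout. Taking the other 5 mimics together as the reference brings in the falls under miR-380-3p and miR-485-3p that were known when the members were listed. Against that reference the change of CHRM1 was 0.61 under miR-99b-5p, 0.92 under miR-1915-3p, -0.68 under miR-380-3p and -1.33 under miR-485-3p. These values follow from the known falls and are given without a p-value.

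**Figure D3:**
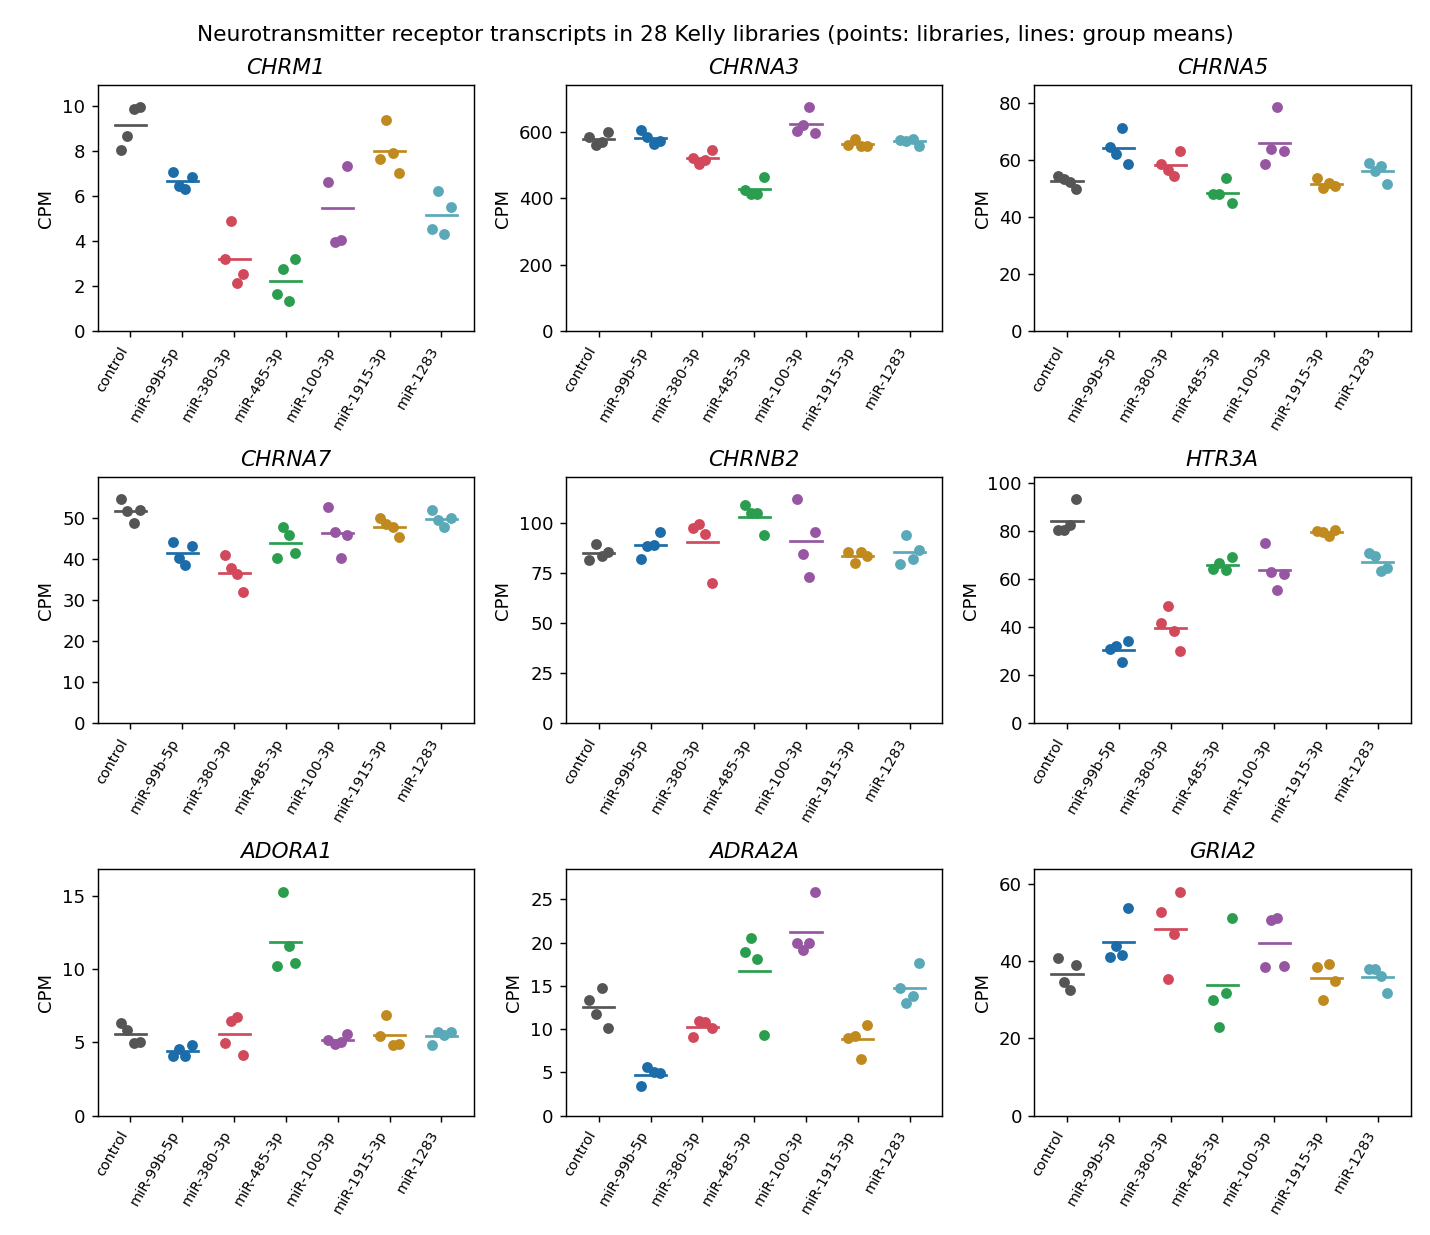
CPM of each receptor transcript in the 28 libraries, 1 panel per gene with its own axis from 0, points for libraries and lines for the means of the 4 libraries of a group. The miR-485-3p and miR-380-3p libraries of CHRM1 (1.34 to 4.88 CPM) lie below the 4 controls (8.04 to 9.93 CPM), the miR-99b-5p libraries of HTR3A (25.6 to 34.2 CPM) far below the controls, and the miR-485-3p libraries of ADORA1 (10.2 to 15.3 CPM) above every other library.

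CHRNA3 (ENSG00000080644, chr15:78593052-78621295, minus strand) encodes the alpha3 subunit of ganglionic nicotinic receptors. It stood at 585, 561, 571 and 599 CPM in the controls and at 426, 413, 412 and 463 CPM under miR-485-3p. The groups were far apart relative to their spread, and the fall was small in size (-0.43 ± 0.049, adjusted p = 2.49e-07). Under miR-380-3p the level was 520, 503, 516 and 546 CPM, all below the controls, with a change of -0.15 ± 0.049 (adjusted p = 0.0438). That call was lost in 11 of 15 alternatives, among them the absence of any single control (adjusted p = 0.0545 to 0.127) or of miR-380-3p replicate 1 (0.0759), 2 (0.104) or 3 (0.109).

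The highest level of CHRNA3 was under miR-100-3p, at 604, 620, 674 and 598 CPM, which overlapped the controls (0.11 ± 0.049, adjusted p = 0.226). With the other mimics as the reference CHRNA3 was called higher under miR-100-3p (0.23, adjusted p = 5.13e-05) and miR-99b-5p (0.12, adjusted p = 0.0213). The groups of miR-1915-3p, miR-1283, control and miR-99b-5p, with means of 564 to 582 CPM, were next to each other in order and overlapped. CHRNA3 has no seed heptamer for any of the 6 mimics in its 3′ UTR.

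CHRNA5 (ENSG00000169684, chr15:78565520-78595269, plus strand) encodes an accessory subunit that joins receptors built from alpha3 or alpha4 and a beta subunit. The gene runs tail to tail with CHRNA3, and their annotated exons share 198 bases on opposite strands. Under miR-485-3p it was not called against the controls (45 to 53.5 CPM, -0.11 ± 0.079, adjusted p = 0.36), and it was called lower with the other mimics as the reference (-0.28, adjusted p = 0.00104). It stood above the control range under miR-380-3p (54.5 to 63.1 against 49.9 to 54.4 CPM, 0.15 ± 0.079, adjusted p = 0.247). It rose under miR-99b-5p to 64.4, 62.1, 71.1 and 58.6 CPM (0.29 ± 0.078, adjusted p = 0.0116) and under miR-100-3p to 58.4, 63.7, 78.4 and 63.1 CPM (0.33 ± 0.078, adjusted p = 0.0114).

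In both groups every library was above all 4 controls. The rise under miR-100-3p took place in a transcript with a miR-100-3p heptamer, and was not called without miR-100-3p replicate 3 (0.23, adjusted p = 0.0726) or with only the 8 libraries of the comparison (adjusted p = 0.0828). Without miR-99b-5p replicate 4 the rise under that mimic was 0.23 (adjusted p = 0.0596). The difference between CHRNA3 and CHRNA5 within a group was not tested. An annotated antisense RNA, AC027228.2, covers 832 bases of the CHRNA5 exons, and the library kit keeps strand, but whether the counting used it is not stated. The same limit applies to CHRM1, ADORA1 and CHRNB2, where annotated antisense RNAs cover 313, 354 and 321 exon bases.

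CHRNA7 (ENSG00000175344, chr15:31923438-32173018, plus strand) encodes the subunit of homomeric, calcium-permeable alpha7 receptors. It was 54.4, 51.7, 48.8 and 51.9 CPM in the controls, and the controls were its highest group. Under miR-380-3p it was 40.8, 37.7, 36.2 and 31.9 CPM, and all 4 were below the controls (-0.50 ± 0.079, adjusted p = 8.33e-05). Under miR-99b-5p it fell to 44, 40.2, 38.4 and 43.2 CPM (-0.32 ± 0.079, adjusted p = 0.0052), and that call was lost only with the other mimics as the reference (-0.11, adjusted p = 0.217).

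Under miR-485-3p, for which CHRNA7 holds the 2 heptamers shown above, it was 40.3, 47.8, 45.8 and 41.4 CPM. These libraries were all below the controls (-0.24 ± 0.079, adjusted p = 0.0301), and the difference from the other mimics' effects was not tested. The call was lost in 9 of 15 alternatives, among them library-size scaling (adjusted p = 0.075) and the other mimics as the reference (-0.010, adjusted p = 0.925), and without control replicate 1 (0.0931), 2 (0.0597) or 5 (0.0587) or miR-485-3p replicate 1 (0.11) or 5 (0.0621). Under miR-1283, for which it holds 1 heptamer, it stood at 47.8 to 51.8 CPM (-0.057 ± 0.078, adjusted p = 1).

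The counts of CHRNA7 were not whole numbers in any of the 28 libraries. Part of the gene is duplicated in CHRFAM7A, a fusion gene, so the split of reads between them is an estimate. CHRFAM7A averaged 11.8 ± 2.13 CPM in the controls and was not called under any mimic. The sum of both was 58.2 to 68.7 CPM in the controls, 47.2 to 54.8 under miR-99b-5p, 40.3 to 52.1 under miR-380-3p and 51.8 to 59.3 under miR-485-3p. The sums of miR-99b-5p and miR-380-3p stayed below all controls, while those of miR-485-3p overlapped them.

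CHRNB2 (ENSG00000160716, chr1:154567781-154580026, plus strand) encodes the beta2 subunit, the partner of alpha4 in brain and of alpha3 in ganglia. It moved little: the controls were 81.5, 89.5, 83.7 and 85.6 CPM, and the 6 mimic groups had means of 83.8 to 103 CPM. Under miR-485-3p it was 109, 105, 105 and 94.1 CPM, all above the controls (0.28 ± 0.10, adjusted p = 0.0497). That call was lost in 10 of 15 alternatives, including library-size scaling (adjusted p = 0.0689) and the absence of any single control (0.062 to 0.118) or of miR-485-3p replicate 1 (0.123), 2 (0.0791) or 3 (0.13). It ranged from 70.1 to 99.7 CPM among the miR-380-3p libraries and from 73 to 112 CPM among those of miR-100-3p, both of which spanned the controls.

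HTR3A (ENSG00000166736, chr11:113974881-113990313, plus strand), the serotonin-gated cation channel, was the member called under most mimics. It was 80.6, 80.6, 82.8 and 93.3 CPM in the controls. Under miR-99b-5p it fell to 30.8, 32.1, 25.6 and 34.2 CPM, a 2.75-fold difference (-1.46 ± 0.11, adjusted p = 2.37e-10). Under miR-380-3p it fell to 41.9, 49, 38.3 and 30 CPM, a 2.12-fold difference (-1.09 ± 0.11, adjusted p = 8.3e-08). These 2 groups overlapped each other and lay below every other library of the series. HTR3A holds no heptamer of either mimic in its 3′ UTR of 550 bases or elsewhere in the transcript.

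Smaller falls of HTR3A were called under miR-485-3p, at 64.2, 66.8, 64.1 and 69.3 CPM (-0.35 ± 0.10, adjusted p = 0.0164), and miR-100-3p, at 75.2, 62.9, 55.4 and 62.1 CPM (-0.40 ± 0.10, adjusted p = 0.0201). With the other 5 mimics as the reference they turned to 0.32 (adjusted p = 0.0028) and 0.26 (adjusted p = 0.0236), and without control replicate 5, the highest library at 93.3 CPM, neither was called (adjusted p = 0.0662 and 0.0807). The miR-100-3p fall was also not called without miR-100-3p replicate 2 (0.0511) or 3 (0.0918). MiR-1915-3p gave 78 to 80.5 CPM and miR-1283 63.4 to 71.2 CPM, each below all controls and not called (adjusted p = 0.999 and 1), and both were called higher with the other mimics as the reference (0.64, adjusted p = 6.64e-06, and 0.35, adjusted p = 0.0158).

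HTR3B, whose product joins HTR3A in heteromeric channels, was low, at 0.894 CPM in the controls. HTR3B was called lower under the same 2 mimics that lowered HTR3A most. Its level was 0.429 CPM under miR-99b-5p (-1.05 ± 0.29, adjusted p = 0.0133). Under miR-380-3p it was 0.326 CPM (-1.45 ± 0.32, adjusted p = 0.0018). The other mimics also gave lower means, without a call: miR-100-3p (-0.868), miR-485-3p (-0.655), miR-1915-3p (-0.647) and miR-1283 (-0.507). The controls were thus its highest group, and the falls were not particular to the mimics that lowered HTR3A most. Its mean of 0.562 CPM over all libraries is under the limit of 1 CPM used to judge members.

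ADORA1 (ENSG00000163485, chr1:203090654-203167405, plus strand), the Gi-coupled A1 adenosine receptor, stood apart in 1 group. It was 6.3, 5.86, 4.97 and 5.06 CPM in the controls and 10.2, 15.3, 11.6 and 10.4 CPM under miR-485-3p. All 4 miR-485-3p libraries were above each of the other 24, at a level 2.13-fold that of the controls (1.09 ± 0.15). The highest of them, replicate 2, is also the library with the highest GC slope, described below, and without it the change was 0.96. Group means from miR-100-3p to miR-380-3p ran from 5.15 to 5.58 CPM and overlapped each other in order. MiR-99b-5p was lowest, at 4.06 to 4.85 CPM, below all controls (-0.34 ± 0.16, adjusted p = 0.145). With the other mimics as the reference its change was -0.53. That reference holds the miR-485-3p rise known when the members were listed, so no p-value is given. No annotated 3′ UTR of ADORA1 of at least 50 bases holds a miR-485-3p heptamer. Before the 3′ UTR only 562 bases of 1 transcript were searched, without a match, while the longest transcript of the gene has 3407 bases.

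ADRA2A (ENSG00000150594, chr10:111077163-111080907, plus strand), a single-exon gene for the Gi-coupled alpha2A receptor that senses noradrenaline, was called in opposite directions under different mimics. Its controls were 13.4, 11.8, 14.8 and 10.1 CPM. With miR-99b-5p it fell to 3.39, 5.64, 5 and 4.92 CPM, 2.63-fold below the controls (-1.39 ± 0.20, adjusted p = 1.2e-05). With miR-100-3p it rose to 20, 19.1, 20 and 25.9 CPM, 1.7-fold above them (0.77 ± 0.18, adjusted p = 0.00987). Neither group overlapped the controls, and both changes held in all 15 alternatives.

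In the miR-485-3p group, replicates 1, 2 and 3 had more ADRA2A than any control, at 18.9, 20.5 and 18.1 CPM, and replicate 5 had less, at 9.29 CPM. The change was not called with all 4 (0.42 ± 0.18, adjusted p = 0.112) and was called without replicate 5 (0.60, adjusted p = 0.0046). It was also called with the other mimics as the reference (0.65, adjusted p = 0.000587), when the model held the GC slope (0.37, adjusted p = 0.0427) and when it held the replicate number as a block (0.44, adjusted p = 0.0292). In the order of means, miR-99b-5p was separated from the next group, miR-1915-3p at 6.52 to 10.5 CPM, and all later neighbours overlapped. No heptamer for any mimic was found in its 3′ UTR.

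GRIA2 (ENSG00000120251, chr4:157204182-157366075, plus strand) encodes the AMPA receptor subunit whose RNA editing makes the channel nearly impermeable to calcium. It was called under none of the 6 mimics in edgeR or DESeq2 (unadjusted p under 0.05 in edgeR in 1 of 6). Its controls were 40.7, 34.5, 32.6 and 38.9 CPM. The highest group was miR-380-3p, at 52.6, 35.2, 46.9 and 57.9 CPM (0.39 ± 0.17, adjusted p = 0.151). That change was called with the replicate block (0.50, adjusted p = 0.0355) and without miR-380-3p replicate 2 (0.52, adjusted p = 0.049). The miR-99b-5p libraries, at 40.9 to 53.6 CPM, were all above the controls (0.30 ± 0.17, adjusted p = 0.259). Under miR-485-3p it spread from 22.9 CPM in replicate 2 to 51 CPM in replicate 5 (-0.11 ± 0.17, adjusted p = 0.702). The main editing enzyme of GRIA2, ADARB1, was also called under none of the 6 mimics (41.5 CPM in the controls, changes of -0.17 to -0.080, adjusted p of 0.0827 or more).

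The balance between GC-rich and GC-poor transcripts varied among libraries, and several members moved with it. The GC slope, the slope of a library's log2 CPM, centred per gene, on the GC fraction of the longest transcript, ran from -2.15 (miR-99b-5p replicate 2) to 3.24 (miR-485-3p replicate 2), over 11398 genes. Its group means ± SD were 0.431 ± 0.675 in the controls, -0.728 ± 0.989 under miR-99b-5p, -0.186 ± 1.1 under miR-380-3p, 0.726 ± 1.94 under miR-485-3p, -0.287 ± 1.49 under miR-100-3p, 0.166 ± 1.08 under miR-1915-3p and -0.122 ± 1.43 under miR-1283. GRIA2, with the lowest GC content of the 9 at 37.9%, had a Pearson correlation with the slope of -0.70 over the 28 libraries and -0.72 after removal of group means.

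Within groups ADRA2A (59.2% GC) had a correlation of 0.66 with the slope, CHRNA3 (50.3%) -0.60, CHRNA5 (41.9%) -0.48, ADORA1 (60.3%) 0.48, CHRNB2 (57.2%) 0.43, CHRM1 (61.4%) 0.43, HTR3A (55.9%) 0.26 and CHRNA7 (47.3%) 0.16. These are descriptions: the slope is computed from the same libraries, which share their depth and composition with the members. With the slope in the model, chosen after seeing the data, all 17 calls were kept, and CHRM1 under miR-100-3p and ADRA2A under miR-485-3p were added.

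**Figure D4:**
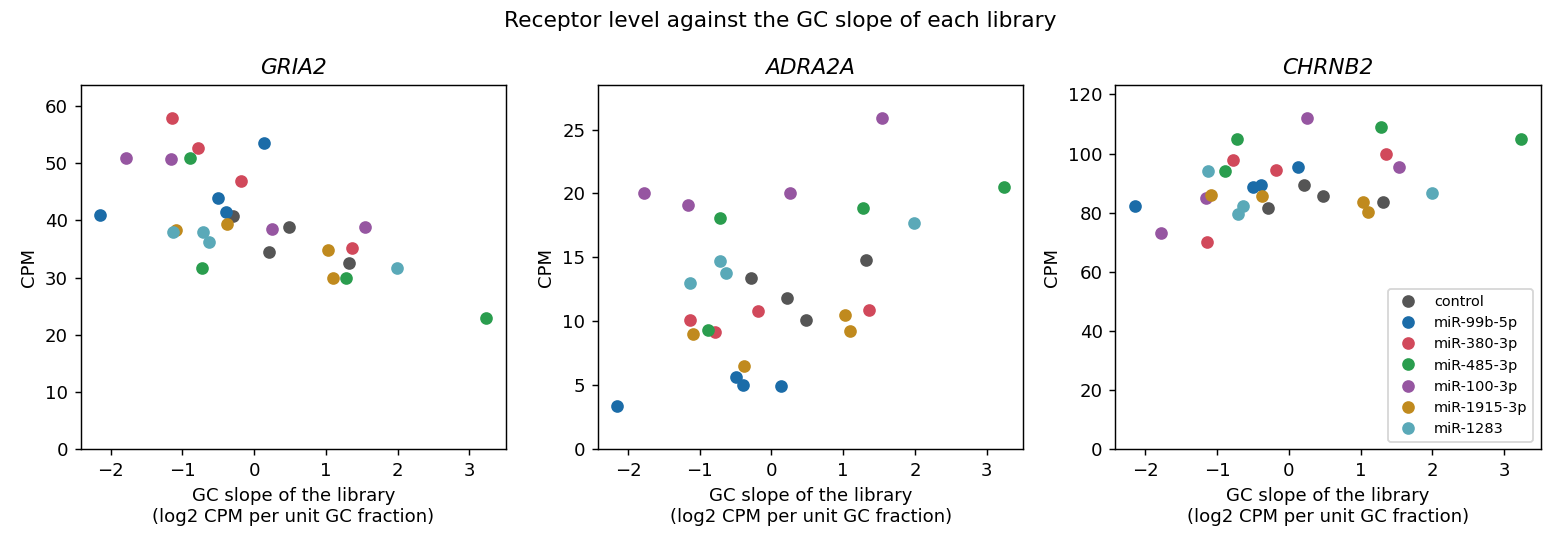
CPM of GRIA2, ADRA2A and CHRNB2 in each of the 28 libraries against the GC slope of the library (log2 CPM per unit of GC fraction), coloured by group. GRIA2 is lowest, at 22.9 CPM, in the miR-485-3p library with the highest slope (3.24), and the 4 miR-99b-5p libraries of ADRA2A (3.39 to 5.64 CPM) lie below all others.

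The changes were then set beside the seed heptamers. Of the 12 falls that were called, 1 was in a gene with a heptamer for the mimic and 11 were not. That fall was CHRNA7 under miR-485-3p, whose call was lost in 9 of 15 alternatives. Of the 5 rises that were called, 1 was in a gene with a heptamer for the mimic. That rise was CHRNA5 under miR-100-3p, whose call was lost in 2 alternatives. Of the 37 combinations not called, 8 had a heptamer. Whether calls depend on heptamers was not tested. The 10 combinations with a heptamer had log2 changes between -0.24 and 0.33. Of the 6 called changes of at least 2-fold, 0 had a heptamer. They include CHRM1 under miR-380-3p and miR-485-3p and ADORA1 under miR-485-3p, which were known when the members were listed. Only 1.26% (miR-99b-5p), 15.0% (miR-380-3p) and 14.3% (miR-485-3p) of tested genes with a 3′ UTR held a site for the mimics concerned. The count therefore says nothing about large changes and seed sites. Before the 3′ UTR only the transcript with the longest 3′ UTR was searched, which for ADORA1 has 562 bases there. In these transcripts the heptamer of miR-1915-3p occurred once each in CHRM1, CHRNA7, CHRNB2 and GRIA2. That of miR-100-3p occurred once in CHRNB2, and those of the other 4 mimics in no member.

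**Figure D5:**
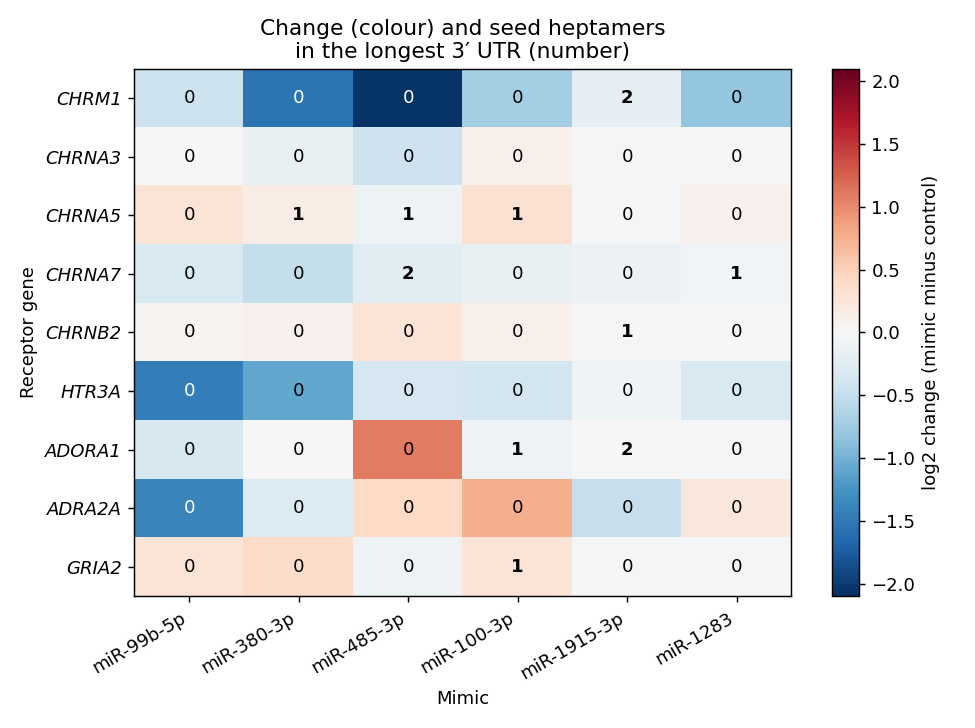
Log2 change of each receptor gene (rows) under each mimic (columns) as colour, blue for lower and red for higher than control, with the number of seed heptamers for that mimic in the longest 3′ UTR printed in each cell. The deepest blue cells, CHRM1 under miR-485-3p and miR-380-3p, HTR3A under miR-99b-5p and ADRA2A under miR-99b-5p, hold the number 0.

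Related receptors and partners were examined in lists, chosen with earlier results known, and no list was tested as a set. The counts stand beside the shares of all tested genes that were called. These were 16.6% under miR-99b-5p, 10.9% under miR-380-3p, 21.1% under miR-485-3p and 5.96% under miR-100-3p. Of 17 other acetylcholine receptor genes 5 were tested, and 2 were called higher under miR-99b-5p and 1 lower under miR-380-3p. CHRM3, another Gq-coupled muscarinic receptor, stood at 10.5 CPM in the controls and rose to 22.7 CPM under miR-99b-5p (1.11 ± 0.13, adjusted p = 4.68e-07) and fell to 5.85 CPM under miR-380-3p (-0.85 ± 0.14, adjusted p = 0.000112). CHRNB4, the beta4 subunit encoded beside CHRNA3, rose under miR-99b-5p from 93.3 to 112 CPM (0.27 ± 0.090, adjusted p = 0.0416). Under miR-485-3p, where CHRNA3 fell, CHRNB4 stood at 95 CPM (0.025 ± 0.090, adjusted p = 0.887).

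Of 36 other monoamine, adenosine and histamine receptors 10 were tested. Under miR-99b-5p 0 were called higher and 2 lower, the median change being -0.43 against -0.003 for all genes, and under miR-380-3p 0 and 1. The alpha1D adrenergic receptor ADRA1D fell under miR-99b-5p from 0.771 to 0.115 CPM (-2.59 ± 0.63, adjusted p = 0.00131). Its mean of 0.872 CPM over all libraries is under the limit of 1 CPM used to judge members. Under miR-100-3p 2 were called higher, among them the dopamine receptor DRD2, from 43.9 to 65.4 CPM (0.58 ± 0.13, adjusted p = 0.00621).

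Of 25 other glutamate receptor genes 15 were tested, and 1 was called higher and 4 lower under miR-485-3p, 2 higher and 1 lower under miR-380-3p, 1 and 2 under miR-99b-5p, and 0 and 1 under miR-100-3p. The AMPA subunit GRIA4 was called higher under miR-380-3p (0.42 ± 0.14, adjusted p = 0.0451) and lower under miR-485-3p (-0.51 ± 0.14, adjusted p = 0.00955). The kainate subunit GRIK3, at 243 CPM in the controls, fell under miR-485-3p (-0.31 ± 0.075, adjusted p = 0.00363) and miR-99b-5p (-0.24 ± 0.075, adjusted p = 0.0292). Of 26 GABA and glycine receptor genes 7 were tested, and the glycine receptor beta subunit GLRB fell under miR-380-3p (-0.69 ± 0.14, adjusted p = 0.00117) and miR-485-3p (-0.65 ± 0.14, adjusted p = 0.0011).

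Acetylcholine handling and receptor assembly had 8 tested genes of 16, of which at most 1 was called in each direction under a mimic. CHAT, the enzyme that makes acetylcholine, was low at 1.93 CPM in the controls and fell under miR-380-3p to 0.81 CPM (-1.22 ± 0.28, adjusted p = 0.0034) and under miR-100-3p to 0.932 CPM (-1.06 ± 0.27, adjusted p = 0.0168). The nicotinic receptor chaperone RIC3 was not called under any mimic (adjusted p of 0.231 or more). TMEM35, which carries the older symbol of the chaperone TMEM35A, rose under miR-380-3p (0.30 ± 0.078, adjusted p = 0.0114) and miR-100-3p (0.33 ± 0.078, adjusted p = 0.0112).

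Among 15 tested AMPA receptor partners and editing enzymes of 20, 2 were called higher and 2 lower under miR-99b-5p. The auxiliary subunit CACNG4 rose from 115 to 190 CPM (0.73 ± 0.085, adjusted p = 5.7e-07). The scaffold DLG1 fell (-0.55 ± 0.11, adjusted p = 0.000464). Of 33 tested G protein subunits and effectors out of 39, 0 were called higher and 6 lower under miR-99b-5p, 3 and 5 under miR-380-3p and 4 and 5 under miR-485-3p. RGS4, which shortens Gi and Gq signals, fell under all 3, from 1720 to 1070 CPM (-0.68 ± 0.11, adjusted p = 3.38e-05), 1260 CPM (-0.45 ± 0.11, adjusted p = 0.00463) and 811 CPM (-1.09 ± 0.11, adjusted p = 2.13e-08).

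Among genes around CHRNA5 and CHRNA3 on chromosome 15, 7 were tested. CHRNB4 is one of them, and 2 were called higher and 1 lower under miR-99b-5p, and 1 and 2 under miR-485-3p. IREB2, an iron regulator, fell under miR-485-3p from 114 to 69 CPM (-0.72 ± 0.12, adjusted p = 5.73e-05).

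Some markers of the cell state were called in the same comparisons. Of the 12 adrenergic markers 1 was called higher and 5 lower under miR-99b-5p, where 16.6% of all genes were called. The counts were 1 and 5 under miR-380-3p (10.9% of all genes) and 0 and 6 under miR-485-3p (21.1%). They were 1 and 4 under miR-100-3p (5.96%) and 0 and 1 under miR-1915-3p (0.246%). Of the 5 tested markers of other cell types 4 were called lower under miR-99b-5p, VWF, COL1A1, KRT19 and GFAP, each below 10 CPM in the controls. Their part in the changes of HTR3A and ADRA2A was not tested.

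The genes whose profile over the 28 libraries was most like each member's were ranked by Pearson correlation of log2 CPM among 11478 genes. HTR3A was closest to TRIB2 (0.90), DDC (0.88) and SLC39A1 (0.87), ADORA1 to KCNK3 (0.90), ACTL8 (0.88) and CABLES2 (0.88), and ADRA2A to PITPNA (0.90), IMP4 (0.89) and TESC (0.88). CHRM1 was closest to DOCK6 (0.88), EIF2D (0.86) and SYNPO (0.85). For CHRNA3 they were UBE2Q1 (0.94), CLDN12 (0.94) and SUPT6H (0.93), for CHRNA5 SPATA7 (0.87), CHN1 (0.87) and GNAI1 (0.86), and for CHRNA7 ZNF274 (0.85), SHC1 (0.85) and PSMB5 (0.84).

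CHRNB2 was closest to MMP24 (0.82), BAHD1 (0.81) and MTCH1 (0.81), and GRIA2 to SPICE1 (0.91), LPHN3 (0.90) and KIAA1549L (0.90). After removal of group means these correlations stayed at 0.77 to 0.86 for CHRNB2 and 0.85 to 0.94 for GRIA2, whereas those of HTR3A were 0.35 to 0.61 and those of CHRM1 0.36 to 0.58. Among the members themselves CHRNA7 and HTR3A had a correlation of 0.77 (0.66 within groups), and CHRNA3 and ADORA1 one of -0.84 (-0.37 within groups). The libraries share their control group, depth and composition, so these values describe this set of libraries.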

How the data were processed

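Messenger RNA of 28 Kelly libraries (stranded mRNA kit, per the labels' protocols) was aligned to hg19 with STAR, per the submitters' processing notes. The authors deposited a table of expected counts (10.2% of the values are not whole) with a length per gene. The counting tool, its use of strand, the annotation and the filter are not given in the sources used here. Counts were rounded, genes kept with filterByExpr of edgeR 4.0.16 (15058 of 30887 rows) and scaled by TMM (factors 0.9476 to 1.033). The quasi-likelihood test was fitted to all 28 libraries (21 residual degrees of freedom), each mimic against the control, two-sided, with Benjamini-Hochberg adjustment and calls at 0.05. SE came from the fitted weights. CPM use effective library sizes, and log2 CPM a prior count of 2. The fit was tested on simulated data.

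Members and lists were chosen with earlier results of these data known. The genes named are the 9 members, for each the 3 genes with the highest correlation, and up to 4 genes of a list called under most mimics, of which some are not described. RIC3, CHRFAM7A, ADARB1, HAND2, PECAM1 and COL1A2 were named outside this rule. Seed heptamers were searched in 3′ UTRs of at least 50 bases of GENCODE v29 (GRCh38), which differs from the authors' hg19, so all coordinates are GRCh38. Depth sets the precision through the spread between libraries. Alternatives were DESeq2 1.42.0, library-size scaling, no filter, 8 libraries only, a replicate block, the other 5 mimics as reference, each library left out in turn and, chosen after seeing the data, the GC slope as covariate.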

Additional observations from a re-analysis of the deposited data

Results flagged for a closer look

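A single group of the 63 (9 receptors in 7 groups of 4 libraries) held a library far from the other 3. ADRA2A in miR-100-3p replicate 4 was at 25.9 CPM, while the others lay between 19.1 and 20 CPM, so the gap took 0.867 of the range of the group, above the 95% critical value of Dixon's test for 4 values. Chance flags about 1 in 20 such groups. Without that library ADRA2A was still called higher (0.65, adjusted p = 0.0438, edgeR).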

How the results depend on the processing

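Of the 17 called changes, 9 kept their call in all 15 alternatives. The alternative with the other 5 mimics as the reference is a different comparison. In the alternatives against the control 10 kept their call, CHRNA7 under miR-99b-5p being added. Among the 9 were HTR3A under miR-99b-5p and miR-380-3p, ADRA2A under miR-99b-5p and miR-100-3p, CHRNA3 under miR-485-3p and CHRNA7 under miR-380-3p. The others were CHRM1 under miR-380-3p and miR-485-3p and ADORA1 under miR-485-3p. Those changes were known when the members were listed, so their kept calls are no support. With the other 5 mimics as the reference, 253 (miR-1283), 1072 (miR-1915-3p), 2578 (miR-100-3p), 3149 (miR-380-3p), 4200 (miR-99b-5p) and 5158 (miR-485-3p) genes were called, with 2 members called under miR-1915-3p and 1 under miR-1283. For CHRM1, which is among the 2, and for ADORA1 that reference holds the changes known when the members were listed. The following log2 changes turned in sign with that reference: CHRM1 to 0.61 (miR-99b-5p), 0.92 (miR-1915-3p), 0.31 (miR-100-3p) and 0.17 (miR-1283), HTR3A to 0.64 (miR-1915-3p), 0.35 (miR-1283), 0.32 (miR-485-3p) and 0.26 (miR-100-3p), CHRNA7 to 0.21 (miR-1283), 0.14 (miR-1915-3p) and 0.086 (miR-100-3p), CHRNA3 to 0.060 (miR-1915-3p) and 0.084 (miR-1283), CHRNB2 to -0.028 (miR-99b-5p) and -0.093 (miR-1283), CHRNA5 to -0.030 (miR-1283) and ADORA1 to -0.11 (miR-380-3p). Other turns were of changes not called against the control: library-size scaling gave -0.003 for CHRNA3 under miR-99b-5p and -0.011 for ADORA1 under miR-380-3p, the GC slope -0.020 and 0.008 for CHRNA3 under miR-99b-5p and ADORA1 under miR-1283, and no filter 0.004 for CHRNA3 under miR-1283.

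The GC slope gave 4878 (miR-485-3p), 2804 (miR-380-3p), 181 (miR-1915-3p) and 1817 (miR-100-3p) called genes. The 8 libraries alone gave 2000 (miR-485-3p), 491 (miR-100-3p) and 0 (miR-1283), no filter 564 (miR-100-3p) and 1 (miR-1283), and DESeq2 83 (miR-1915-3p) and 5 (miR-1283), of which 16.9% and 20% were higher against 5.4% and 0% in edgeR. The cause was not tested.

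Without 1 library at a time, called genes ranged from 1056 to 1755 (miR-380-3p), 20 to 36 (miR-1915-3p), 0 to 2 (miR-1283) and 551 to 900 (miR-100-3p). Under miR-485-3p they ranged from 2240 to 3395. Called members under miR-485-3p ranged from 3 to 6, lowest without control replicate 5, where 2680 genes were called. They include CHRM1 and ADORA1, whose changes were known when the members were listed. Called members under miR-100-3p ranged from 1 to 4, lowest without miR-100-3p replicate 3, where 551 genes were called. The changes that turned in sign, none of them called against the control, had these ranges: CHRNA3 under miR-99b-5p (-0.012 to 0.026), ADORA1 under miR-380-3p (-0.097 to 0.137), GRIA2 under miR-485-3p (-0.391 to 0.028), CHRNB2 under miR-100-3p (-0.007 to 0.198), CHRNB2 under miR-1915-3p (-0.041 to 0.004), ADORA1 under miR-1915-3p (-0.139 to 0.054), GRIA2 under miR-1915-3p (-0.094 to 0.033), CHRNA3 under miR-1283 (-0.031 to 0.018), CHRNB2 under miR-1283 (-0.036 to 0.045), ADORA1 under miR-1283 (-0.077 to 0.038), GRIA2 under miR-1283 (-0.083 to 0.049).

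The labels do not say whether libraries of different groups with the same replicate number share a batch. Correlations of the deviations from group means between mimic and control libraries of the same number ran from -0.0923 to 0.303. With the replicate block 3500 genes and 6 members were called under miR-485-3p, 2659 and 4 under miR-99b-5p, 1746 and 4 under miR-380-3p, 976 and 3 under miR-100-3p, 50 and 0 under miR-1915-3p, and 3 and 0 under miR-1283. In that fit CHRNB2 under miR-485-3p (adjusted p = 0.0661) and CHRNA3 under miR-380-3p (0.0992) lost their call, while ADRA2A under miR-485-3p (0.0292) and GRIA2 under miR-380-3p (0.0355) gained one. MiR-99b-5p replicate 7 shares its number with no library and adds nothing to that fit. The block turned ADORA1 under miR-380-3p to -0.056, GRIA2 under miR-1915-3p and miR-1283 to 0.061 and 0.077, and CHRNA3 under miR-1283 to 0.007.

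With hexamers in place of heptamers, 6 (miR-100-3p), 6 (miR-1915-3p), 3 (miR-1283), 2 (miR-380-3p), 2 (miR-485-3p) and 1 (miR-99b-5p) of the 9 members held at least 1 match. Among tested genes with a 3′ UTR the shares were 38.8%, 54.8%, 36.1%, 39.2%, 26.5% and 6.82%, in the same order. By longest transcript, control levels were 181 (CHRNA3), 6.7 (CHRNA7), 34.7 (HTR3A), 1.63 (ADORA1) and 6.52 (GRIA2) CPM per kb, and by the deposited length 3.54 (CHRM1), 288 (CHRNA3), 34.8 (CHRNA5), 11.7 (CHRNA7), 38.7 (HTR3A), 2.8 (ADORA1) and 13.4 (GRIA2).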
